A study of Caenorhabditis elegans with 2 samples.

Results

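The genes described are 9 whose products hold maternal mRNAs silent in the oocyte of Caenorhabditis elegans. They were listed by name, with earlier results of these peak lists known. The genes are puf-3, puf-11, puf-5, lin-41, mex-3, spn-4, cgh-1, car-1 and ifet-1, 9 of the 19973 protein-coding genes annotated on the nuclear chromosomes of WBcel235 (ce11) by Ensembl. All 9 symbols matched 1 gene each, and none of the 9 lies on the X chromosome. The samples were 2 biological replicates, in 1 group, of whole young adults of strain OP720, grown from starved first-stage larvae, 69 h old and of pooled sexes. All animals carried unc-119(tm4063) and the transgene wgIs720, which holds lsl-1 fused to TY1, EGFP and 3xFLAG together with unc-119(+), so the tagged LSL-1 is an added copy, from 1 strain. Chromatin immunoprecipitation with an antibody to GFP and sequencing (ChIP-seq) gave lists of regions. The antibody field of the sample labels reads lsl-1, the tagged gene. The lists say where the tagged protein was found in whole animals, not in which cells. There is no second condition, so no test between groups exists, and the values below describe the lists.

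LSL-1 is a zinc-finger transcription factor known for its role in germline gene expression. Oocytes are transcriptionally silent when mature and run on stored mRNA, which RNA-binding proteins keep from being translated until the right stage. PUF proteins, the TRIM-NHL protein LIN-41, the KH-domain protein MEX-3 and the RRM protein SPN-4 recognise chosen messages, mostly through their 3' untranslated regions. CGH-1 (the DDX6-type helicase), CAR-1 (of the Lsm14 family) and IFET-1 (the eIF4E-binding protein 4E-T) are general repressors that package many mRNAs into cytoplasmic granules.

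A gene was called bound when a summit of an optimal IDR peak fell in its promoter window, which reaches 1000 bp before and 200 bp past its outermost annotated 5' end. IDR, the irreproducible discovery rate, keeps peaks that hold their rank between replicates, and the deposited optimal list has 3897 of them. By this rule 8 of the 9 genes were bound, by 10 peaks, where 14.2% of all protein-coding genes were bound. The exception was mex-3, which had no region of any strength in the window, although 36.7% of protein-coding genes had at least 1 region there in the pooled list. Its strong peak lies inside the gene and is described below. Ranks run from 1, the strongest, by the deposited signal value, and positions are bp from the 5' end, negative upstream.

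The sequences around the strongest promoter summit of 6 genes are shown so that the bases under the summits can be compared. Each run covers 75 bp on either side of the summit, 5' to 3' on the strand of the gene, from the RefSeq assembly of WBcel235. Capitals mark 5 words of 6 bases within 50 bp of the summit, on either strand, which an earlier search of these same peaks had found at summits. They are ACAGTA, then its partner on the opposite strand ACTGTA (the pair share 5 of their bases), then CTACAG, which shares 4 bases with the first, and the GC-rich words GGCGCA and, last, ACGCGC.
puf-11, chrIV:6421307-6421457, plus strand: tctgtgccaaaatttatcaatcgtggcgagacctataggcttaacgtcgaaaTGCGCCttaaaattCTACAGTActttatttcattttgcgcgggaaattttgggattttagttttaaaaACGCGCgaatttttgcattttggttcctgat
puf-3, chrIV:13512314-13512464, minus strand: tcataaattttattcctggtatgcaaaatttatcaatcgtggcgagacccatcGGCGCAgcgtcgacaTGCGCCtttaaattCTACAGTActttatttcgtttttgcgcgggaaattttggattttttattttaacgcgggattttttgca
ifet-1, chrIII:4475579-4475729, minus strand: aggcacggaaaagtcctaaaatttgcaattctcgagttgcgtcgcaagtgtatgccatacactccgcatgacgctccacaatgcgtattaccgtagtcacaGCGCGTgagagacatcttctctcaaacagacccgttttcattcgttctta
puf-5, chrII:8575255-8575405, plus strand: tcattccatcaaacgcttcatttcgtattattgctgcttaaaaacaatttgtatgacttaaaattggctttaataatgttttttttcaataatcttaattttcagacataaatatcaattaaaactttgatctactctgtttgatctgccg
spn-4, chrV:6784991-6785141, minus strand: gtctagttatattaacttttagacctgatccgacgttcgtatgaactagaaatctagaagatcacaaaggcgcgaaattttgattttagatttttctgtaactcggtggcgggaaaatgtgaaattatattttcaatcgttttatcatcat
cgh-1, chrIII:7498061-7498211, minus strand: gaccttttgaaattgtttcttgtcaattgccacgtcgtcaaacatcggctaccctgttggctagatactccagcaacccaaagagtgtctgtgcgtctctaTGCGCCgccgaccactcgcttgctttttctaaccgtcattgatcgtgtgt

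The PUF genes puf-11 and puf-3, a pair of close paralogs that encode sequence-specific RNA-binding proteins of the oocyte, had the peaks of rank 79 and rank 104. The annotation places puf-11 (WBGene00022257) at chrIV:6421585-6423497 on the plus strand and puf-3 (WBGene00004239) at chrIV:13510307-13512162 on the minus strand. The puf-11 peak (chromosome IV, 6421139 to 6421638) has its summit at -203 bp, in intergenic sequence, with a deposited signal value of 2093 in the pooled data. It ranked 79 in replicate 1 (signal value 1567) and 86 in replicate 2 (signal value 530.2). The puf-3 peak (chromosome IV, 13512117 to 13512592) has its summit at -227 bp, with a pooled signal value of 1926. It ranked 105 in replicate 1 (signal value 1439) and 109 in replicate 2 (signal value 486). Both genes thus had a strong peak at nearly the same distance in both replicates. The setting differs: puf-3 lies on the opposite strand inside afmd-2, so its summit is in an intron of that gene, while puf-11 shares its peak with no protein-coding gene, only with a pseudogene whose 5' end puts the summit at -182 bp.

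Because these genes are duplicates, their upstream sequences were compared. In a stretch from 600 bp before the 5' end to 50 bp past it, 564 aligned positions of puf-3 and puf-11 were 90.4% identical, with 65 gap bases; their coding sequences were 91.5% identical over 1500 positions. In the runs printed above the longest identical stretches are 26, 22 and 20 bases long. The 22-base stretch, AAATTCTACAGTACTTTATTTC, starts 2 bp downstream of the puf-3 summit and 14 bp upstream of the puf-11 summit, carries the overlapping words CTACAG and ACAGTA, and occurs at 2 places in the genome, these promoters. Every 36-base stretch of both peaks occurs once in the genome (441 of 441 for puf-3, 465 of 465 for puf-11), so reads of that length can be told apart, though the read length is not given in the sources used here. The promoter of puf-5 aligned with neither beyond 18 positions.

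The third PUF member, puf-5 (WBGene00004241, chrII:8575541-8577787, plus strand), acts with puf-6 and puf-7 in growing oocytes. Its peak (chromosome II, 8575045 to 8575572) has rank 487 and its summit at -211 bp, in intergenic sequence, with a signal value of 881. Replicate 1 ranked it 474 (signal value 675) and replicate 2 ranked it 531 (signal value 213). The summit is thus at about the distance seen for puf-3 and puf-11, with a lower rank in both replicates and none of the 5 words within 50 bp.

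The TRIM-NHL gene lin-41 (WBGene00003026, chrI:9334800-9342496, minus strand), which keeps growing oocytes from maturing too early, had a peak of rank 811 (chromosome I, 9342519 to 9342942) with its summit at -292 bp and a signal value of 594. It ranked 794 in replicate 1 (signal value 454) and 896 in replicate 2 (signal value 141). The gene has a second annotated 5' end 577 bp inside the outermost, and the summit lies upstream of both. No other protein-coding gene has this summit in its window, and the 9 weaker pooled regions within 3000 bp of the gene all ranked 5783 or lower.

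The KH-domain gene mex-3 (WBGene00003229, chrI:127285-134270, plus strand), known as a repressor of pal-1 and nos-2 mRNA, was the only 1 of the 9 without a promoter call, yet its peak inside the gene is among the strongest here. That peak (rank 110, signal value 1898) has its summit at +1066 bp from the outermost 5' end, in an intron. It ranked 110 in replicate 1 (signal value 1418) and 113 in replicate 2 (signal value 484). The annotation gives mex-3 5 transcripts with 5 different 5' ends, and the summit lies at -346 bp from the 5' end of F53G12.5a.1. When windows were set on the 5' end of every transcript, all 9 genes were bound, against 15.2% of protein-coding genes. The same 36-base check found every stretch of this peak unique (471 of 471). Just outside the 1000 bp limit, puf-3 also has an IDR peak of rank 1298 at -1079 bp.

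The RRM gene spn-4 (WBGene00004984, chrV:6783187-6784903, minus strand), which acts on stored mRNAs in late oocytes and early embryos, had 2 peaks in its window. The stronger (rank 912, signal value 529) has its summit at -163 bp and ranked 879 in replicate 1 (signal value 407) and 1026 in replicate 2 (signal value 122). The weaker (rank 2112, signal value 224) lies at -362 bp and ranked 2013 in replicate 1 (signal value 179) and 3181 in replicate 2 (signal value 39.6). Both lie between spn-4 and spe-39, a gene needed in sperm formation that is read in the opposite direction, from whose 5' end the summits are -385 and -186 bp. The stronger summit is thus nearer to spn-4 and the weaker nearer to spe-39, and position alone cannot assign either.

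Among the general repressors, ifet-1 (WBGene00004132, chrIII:4471411-4475150, minus strand) ranked highest. Its peak (rank 81, signal value 2085, chromosome III, 4475326 to 4475963) ranked 69 in replicate 1 (signal value 1606) and 112 in replicate 2 (signal value 485). The summit lies at -504 bp from ifet-1 but at -264 bp from rps-1, a ribosomal protein gene read in the opposite direction. Noncoding genes start here too, F56F3.10 with the summit at +78 bp and F56F3.11 with the summit at +3 bp.

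The gene car-1 (WBGene00012484) lies at chrI:12904470-12906040 on the plus strand. Its peak (rank 1142, signal value 422, chromosome I, 12903557 to 12903837) had rank 1196 in replicate 1 (signal value 305) and 1054 in replicate 2 (signal value 119). Its summit lies at -782 bp from car-1 and at -239 bp from coa-5, on the opposite strand. A weaker pooled region has its summit at +144 bp, in the coding sequence of car-1, but its rank of 4815 is below the IDR list, which ends at rank 3897. Thus car-1, like ifet-1, is bound only through a summit nearer to a neighbour's 5' end.

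The helicase gene cgh-1 (WBGene00000479, chrIII:7495320-7497832, minus strand) had 2 peaks, both near the end of the list. The first (rank 3622, signal value 124) has its summit at -304 bp and the second (rank 3770, signal value 119) at -776 bp, where the weakest IDR peak of all has a signal value of 115. The first ranked 3464 in replicate 1 (signal value 99.7), and the nearest replicate 2 summit was 114 bp away with rank 5516 (signal value 24.4). For the second, replicate 1 had a summit of rank 3314 at 78 bp and replicate 2 a summit of rank 3881 at 36 bp. Of the 8 bound genes cgh-1 is therefore the weakest in both replicates, although no other protein-coding gene has these summits in its window.

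**Figure D1:**
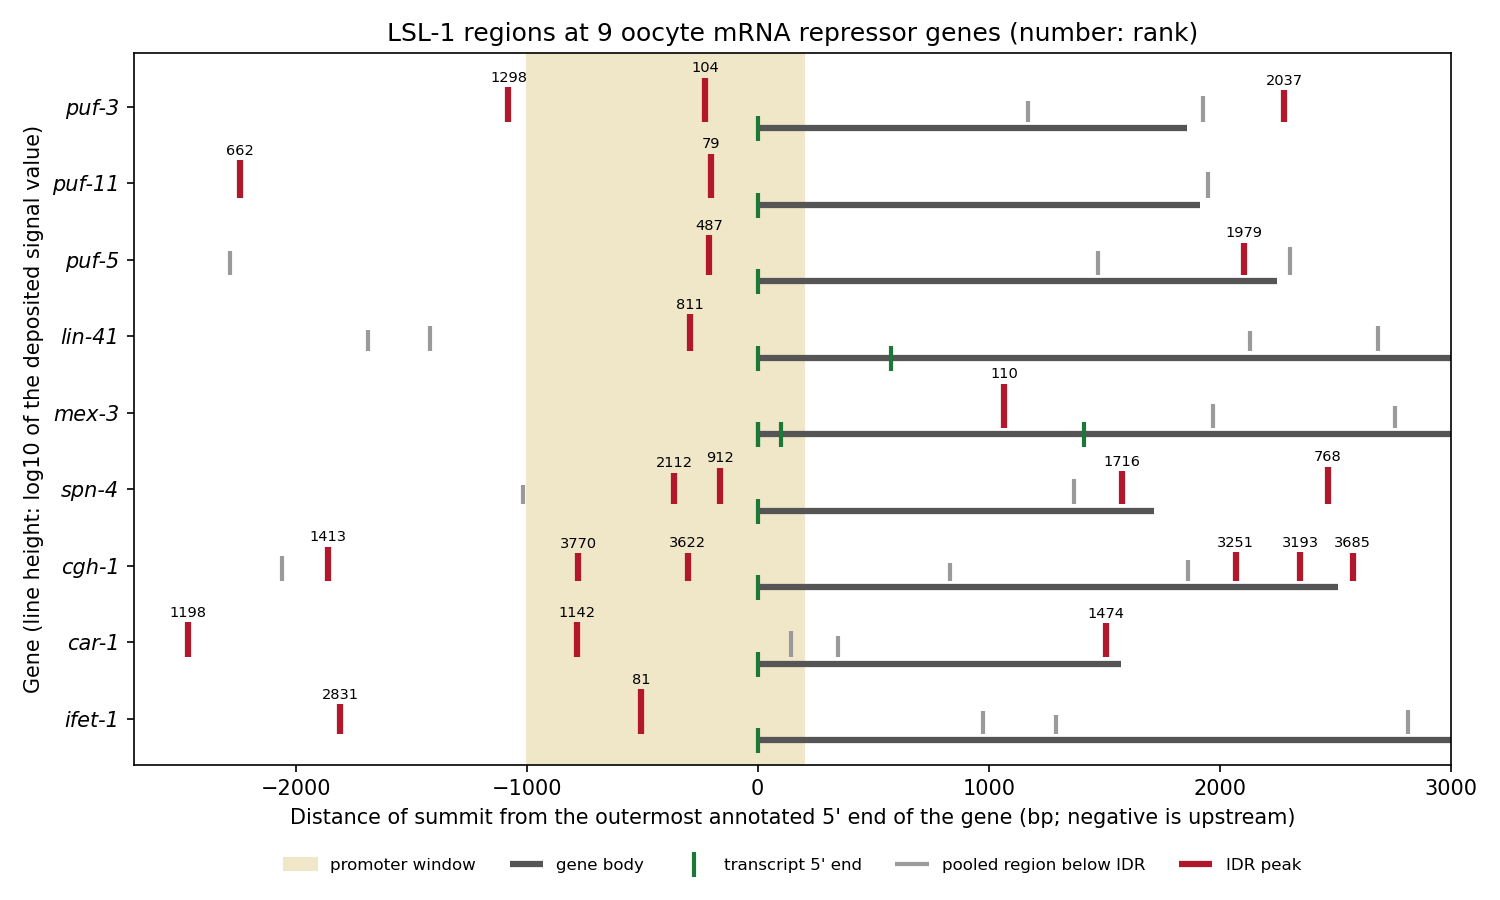
Positions of LSL-1 regions at the 9 genes, as distance of each summit from the outermost 5' end in bp, with IDR peaks in red (rank above), weaker pooled regions in grey, the promoter window shaded, transcript 5' ends in green and the gene body as a bar that ends at 3000 bp; line height is the log10 of the deposited signal value. The strongest red line falls within the shaded window for puf-3, puf-11, puf-5, lin-41, car-1 and ifet-1, outside it for spn-4 and cgh-1, and inside the gene, before a green 5' end, for mex-3.

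Compared with each other, the promoter peaks fall into a strong set and a spread of weaker ones. The 3 strongest, at puf-11, ifet-1 and puf-3, change order between replicates, with ifet-1 first in replicate 1 and puf-11 first in replicate 2, so their order is not resolved. Below them puf-5, lin-41, spn-4, car-1 and cgh-1 came in the same order in both replicates. The best ranks of the 8 bound genes had a median of 649, where the 2836 bound protein-coding genes had a median of 1443.5, and the best summits had a median distance of -259.5 bp, where all bound genes had -250 bp. Of the 8 genes, 3 had their best peak in the strongest 10% of the list, where 15.0% of bound genes did. These medians cover the bound genes alone and were not tested.

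**Figure D2:**
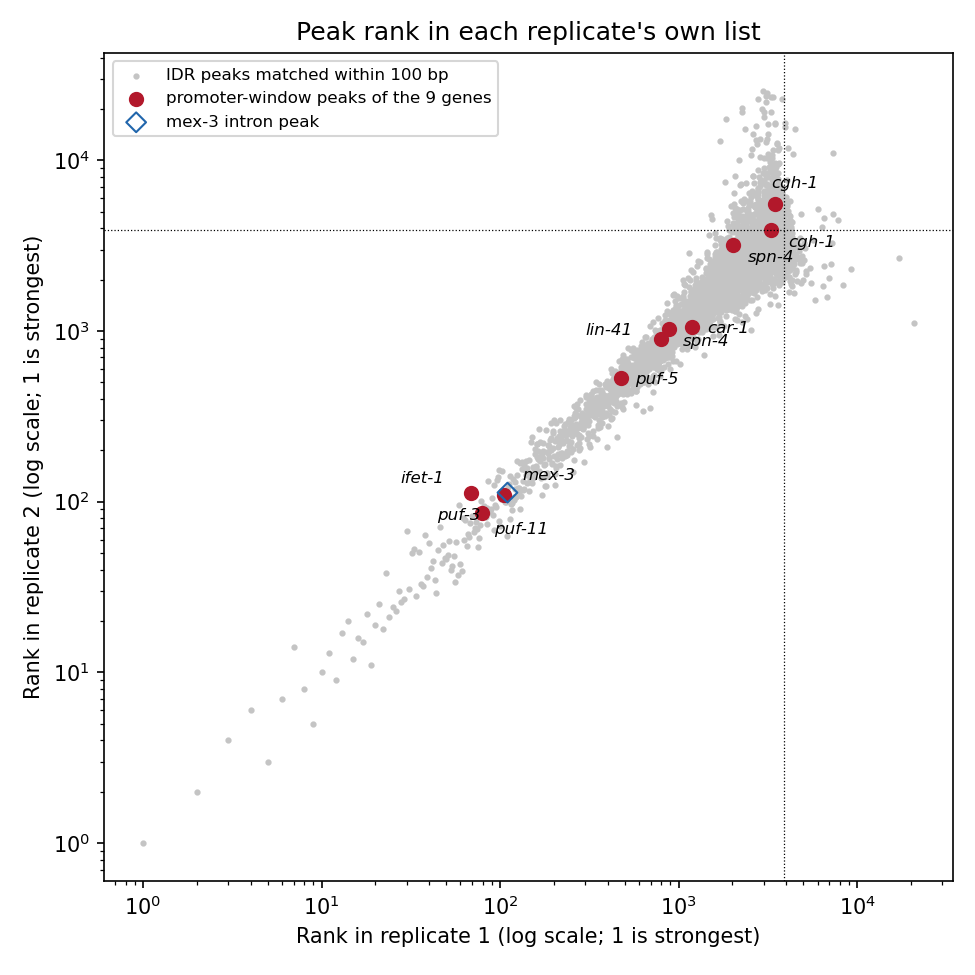
Rank in replicate 1 (x) against rank in replicate 2 (y), both on log scales, for all IDR peaks with a summit within 100 bp in both lists (grey), the 10 promoter-window peaks (red, by the nearest summit) and the mex-3 intron peak (diamond); dotted lines mark rank 3897. Red points lie along the grey cloud, with puf-11, ifet-1 and puf-3 near rank 100 and the first cgh-1 peak, rank 5516 in replicate 2, above the dotted line.

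Support in both replicates was asked of each peak, as a summit within 100 bp among the 3897 strongest regions of each replicate list. Of the 10 peaks, 9 had it, and so did 8 of the 9 genes through at least 1 peak, where 12.3% of protein-coding genes had such a peak. The peak without it is the first cgh-1 peak. IDR peaks were selected on these replicates, so this describes the selected peaks and is no independent check.

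Sequence words at the summits set puf-3 and puf-11 apart from the other members. At both genes the word CTACAG lies together with ACAGTA and, on the other strand, with ACTGTA, from +7 to +14 bp of the summit at puf-3 and from -9 to -2 bp at puf-11. No other promoter peak of the 9 genes held any of these 3 words within 50 bp. Each word was thus at 2 of the 10 peaks, in both inside the 22-base stretch that these paralogs share. The peaks of this pair are therefore not independent of each other in any of the word counts given here. Over all IDR summits 24.9% held ACAGTA, 24.2% held ACTGTA and 17.4% held CTACAG. The share among the members is thus near that of the list. Among lower-ranked pooled summits the shares, in that order, were 9.32%, 9.58% and 7.32%. GGCGCA was found at 5 member peaks, at puf-3, puf-11, lin-41, cgh-1 and car-1, where 18.2% of IDR summits and 3.31% of lower-ranked summits held it. ACGCGC was found at puf-11, ifet-1 and the second cgh-1 peak, where 14.2% of IDR summits and 3.08% of lower-ranked summits held it. In all, 7 of the 10 peaks held at least 1 word, where 46.8% of IDR summits did and 17.8% of lower-ranked summits did. Within 25 bp it was 3 of 10, where 29.9% of IDR summits did. Neither the promoter summits of puf-5 and spn-4 nor the intron summit of mex-3, searched beside the 10, had any of the 5 words within 50 bp, which says nothing about the factor itself.

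Beyond promoters, 5 of the 9 genes had an IDR summit in their own annotated 3' untranslated region, where 1.14% of the protein-coding genes with such a region did. This was looked at after the positions had been seen and was not tested. The genes were puf-5 (rank 1979), mex-3 (rank 2904), spn-4 (rank 1716), car-1 (rank 1474) and cgh-1, with 2 such peaks (ranks 3193 and 3251). Counted from the last base of the gene, the summits lie at -142 bp at puf-5, -172 bp at mex-3, -141 bp at spn-4, -64 bp at car-1, and -163 and -443 bp at cgh-1. All 6 summits had a summit within 100 bp in both replicates' lists, with ranks from 1367 to 3770 in replicate 1 and from 1738 to 3010 in replicate 2. Those at puf-5 and mex-3 are also in the promoter window of the next gene, -404 bp from F54C9.9 and -239 bp from F53G12.4. Among genes with a promoter peak, 4 of the 8 repressor genes had such a summit, where 4.22% of all genes with a promoter peak did. The 9 genes have long 3' untranslated regions, with a median of 466 bp where all genes have 131 bp. Among genes with at least 200 bp the share was 2.57%. That cut matches the members in length only in part. The 5 genes with a summit have from 371 bp (puf-5) to 942 bp (cgh-1), and puf-11, with 188 bp, falls below the cut.

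Genes that work with these repressors were read by the same rule. The rest of the PUF family was bound in 7 of 7 matched genes, where 14.2% of all protein-coding genes were. The count was 4 with the upper 50% of peaks (9% of all genes bound) and 3 with peaks in 1 window alone (6.65%). The strongest were puf-7 (rank 652, -229 bp, shared with snpc-3.1), puf-6 (rank 820, -213 bp), puf-8 (rank 939, -246 bp, shared with C30G12.1) and fbf-2 (rank 1547, -18 bp, shared with nspg-3). Upstream of puf-6 and puf-7, 650 aligned positions were 97.1% identical, and 55.3% of the 36-base stretches of the puf-6 peak and 37.3% of those of the puf-7 peak were unique. For 50-base stretches the shares were 70.3% at puf-6 and 71.9% at puf-7, so reads of either length could be split between this pair and their ranks are uncertain. The weakest, puf-9 (rank 3627), is the 1 on the X chromosome. The PUF genes thus had peaks whether they act in oocytes, as puf-5 does, or in the mitotic germline, as fbf-1 (rank 2257) and fbf-2 do.

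Of the TRIM-NHL relatives of lin-41, 1 of 4 was bound, where 14.2% of all protein-coding genes were. It was nhl-2 (rank 2022, -788 bp, shared with tag-340), while ncl-1, nhl-1 and nhl-3 were not bound. A list of 4 genes is too short for this count to be read against that share. The call was lost with 500 bp upstream (11.5% of all genes bound) and with the closest 5' end alone (10.2%). It was also lost with the upper 50% of peaks (9%) and with peaks in 1 window alone (6.65%). In the other direction, the count was 2 with any transcript 5' end (15.2% of all genes bound) and 2 with any pooled region (36.7%). Genes for partner proteins of oocyte ribonucleoprotein particles were bound in 9 of 11 cases, where 14.2% of all protein-coding genes were. They were led by oma-1 (rank 34) and oma-2 (rank 56), zinc-finger proteins found with LIN-41 in oocytes, then rnp-8 (rank 112) and gld-3 (rank 161, shared with T07F8.4), which act on poly(A) tails. The unbound partners were gls-1 and meg-1, which is on X. The strongest repressor gene peaks thus rank below those of oma-1 and oma-2.

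Genes for decapping, deadenylation and cap-binding factors were bound in 12 of 21 matched cases, where 14.2% of all protein-coding genes were. The strongest were the Y-box gene cey-2 (rank 59, shared with xrep-4), the Lsm gene lsm-1 (rank 607, shared with rps-9), ife-3 (rank 646), an eIF4E gene, and the deadenylase gene ccr-4 (rank 688, shared with sec-24.2). Unbound genes included cey-1, cey-4, dcap-1 and dcap-2, the last being the decapping enzyme gene. A peak in no other protein-coding window was found for 5 of the 8 bound repressor genes and for 3 of these 12, where 46.8% of all bound genes had one. With the closest 5' end alone the count of 12 was 7, where 10.2% of all protein-coding genes were bound. The weakest, pab-1 (rank 3653), ranked 2952 in replicate 1 and 25603 in replicate 2.

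Of 8 genes whose mRNAs are known to be repressed by these proteins, 5 were bound, where 14.2% of all protein-coding genes were. The count was 3 with 500 bp upstream (11.5% of all genes bound) and with 0 bp downstream (13.5%). It was also 3 with the closest 5' end alone (10.2%) and with the upper 50% of peaks (9%). The 5 genes bound by the main rule were glp-1, the Notch receptor gene (rank 197, -679 bp), orc-1 (rank 390, shared with dhs-11), cdk-1 (rank 1376), nos-2 (rank 2751) and pal-1 (rank 3354). The genes cdc-25.3, rle-1 and zif-1 had no IDR summit in the window, and for cdc-25.3 the best pooled region there ranked 4371. Peaks were thus found at the genes of repressors and of some of their target mRNAs, with ranks that overlap.

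**Figure D3:**
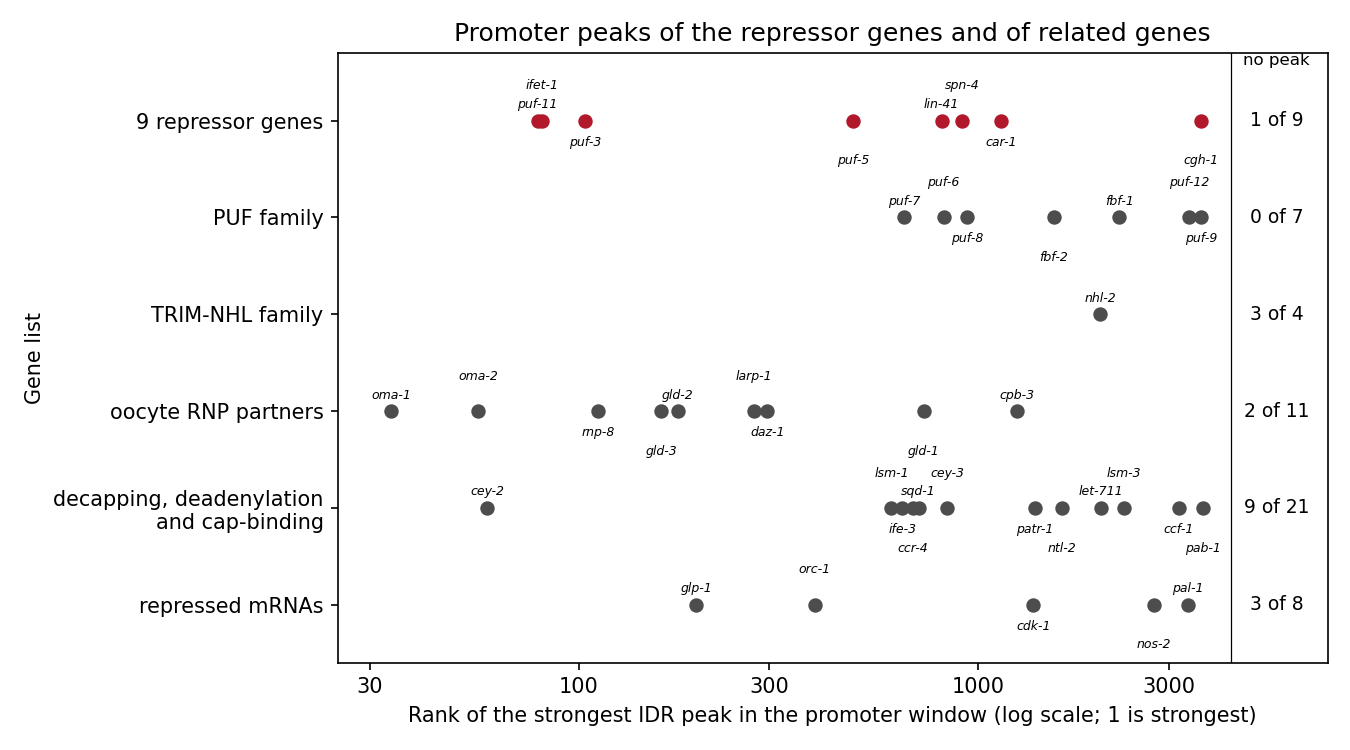
Rank of the strongest IDR peak in the promoter window (log scale) for each bound gene of the 9 repressors (red) and of 5 lists of related genes (grey), with the number of matched genes without a peak at the right. The repressor genes run from rank 79 to 3622, and the oocyte partners from 34 to 1254.

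The rule for giving a peak to a gene mattered most for ifet-1 and car-1. With the closest 5' end alone, 6 of the 9 genes were bound, against 10.2% of protein-coding genes, and with the window shortened to 500 bp upstream again 6 of 9, against 11.5%; both times ifet-1 and car-1 were lost. With the upper 50% of peaks by signal 7 of 9 were bound, against 9%, and cgh-1 was lost. With peaks in the window of 1 gene alone, a setting chosen after seeing the data, 5 of 9 were bound, against 6.65%, and ifet-1, car-1 and spn-4 were lost. The calls of puf-3, puf-11, puf-5 and lin-41 were kept under all of the settings drawn.

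**Figure D4:**
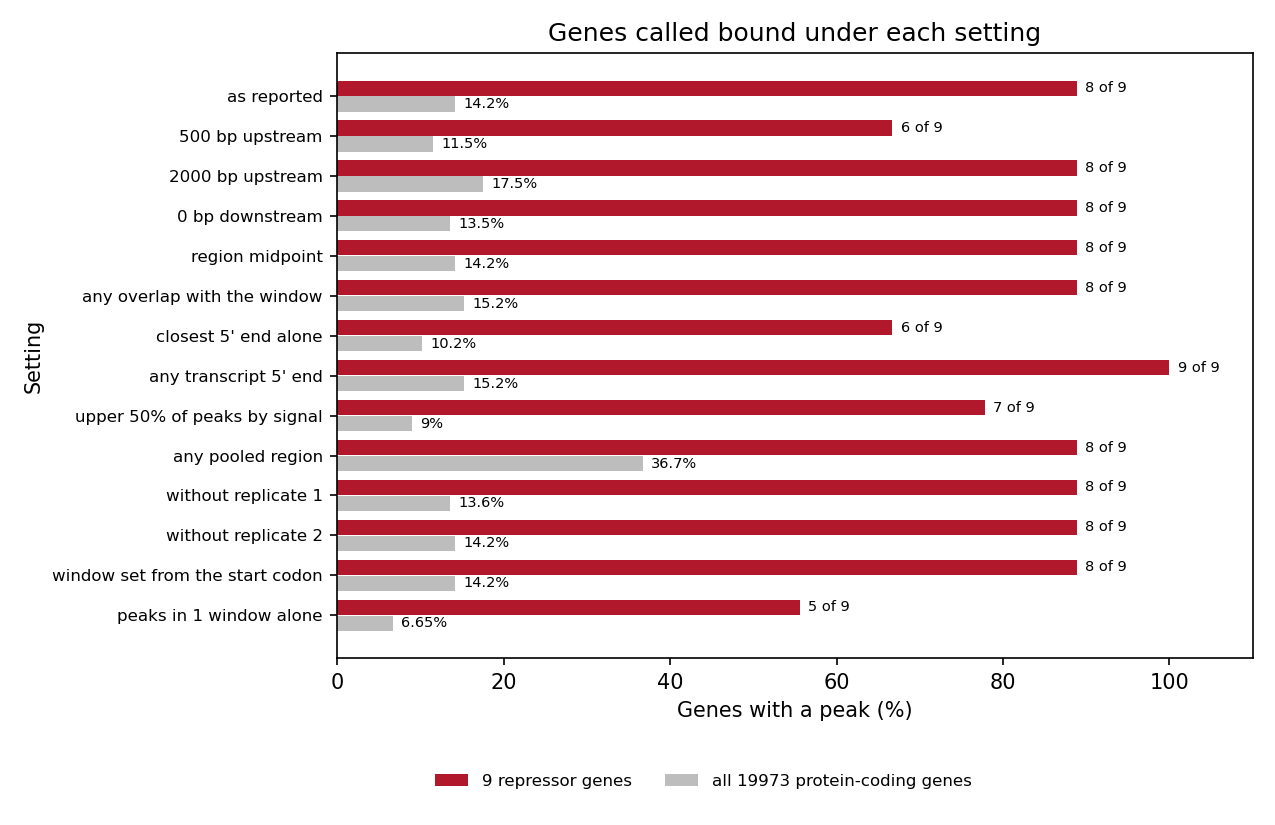
Share of genes with a peak under each setting, for the 9 repressor genes (red, with counts) and all 19973 protein-coding genes (grey). Counts of repressor genes run from 5 of 9 to 9 of 9, and the share of all genes from 6.65% to 36.7%.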

How the data were processed

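Per the labels and the notes deposited beside them, the authors called regions (assembly ce11) in the 2 replicates singly and after pooling, and derived an optimal IDR list. The sources used here do not state aligner, caller, IDR threshold, read length or depth, and so no interval resting on depth is given; a control library is named, and was not used here. The deposited signal value of each region is on the caller's own scale and served only for ranking regions of the same list. A −log10 q-value was deposited too and was used in no result. The deposited summit offset gave the positions. Per the labels, the 2 samples are biological replicates.

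Gene models were those of Ensembl release 115 (WBcel235); bases were read from RefSeq's copy of that assembly. All values are counts, ranks and positions; no test was run, because there is 1 group and because members and lists were chosen with earlier results of these data known. Named genes are the members, genes sharing their peaks, and in each list up to 4 bound genes of best rank (all, where 4 or fewer are bound) and up to 4 unbound in alphabetical order; others (fbf-1, puf-9, pab-1, pal-1 and neighbours outside the windows) were named after their values were seen. Of the listed names puf-2, puf-4, puf-10 and ntl-1 matched no protein-coding gene. Local alignment used Biopython 1.88; Python 3.11.15, numpy 2.4.6, pandas 2.3.3 and matplotlib 3.10.9 did the rest. The peak-to-gene step was tested on simulated data.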

Additional observations from a re-analysis of the deposited data

How the results depend on the processing

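No paired analysis was possible because there is 1 group. The count of bound repressor genes (8 of 9) stayed within 1.5 times under 11 alternatives, running from 6 to 9; under 2 more, chosen after seeing the data, it was 5 with peaks in 1 window alone and 8 with the window set from the start codon. Without either replicate in turn it was 8 and 8, the related genes bound were 32 and 33 (34 with both), and all bound genes were 2726 and 2832 (2836 with both). With peaks in 1 window alone the related genes bound numbered 17 and all bound genes 1328. All bound genes were 1797 for the upper 50% of peaks and 7337 with any pooled region. Peaks of the 9 genes with a word within 25 bp of the summit were 3 of 10, where 29.9% of all IDR summits had one. Within 50 bp they were 7 of 10, where 46.8% did. At 25 bp the member share is thus about that of the whole list. Support in both replicates was found for 7 of the 9 genes with a 50 bp match, where 11.5% of protein-coding genes had it. It was found for 8 with a 200 bp match (12.5% of all), with lists of double length (13.7%) and with whole lists (13.9%). The cause was not tested. Depth is unknown, so what it could resolve among weak regions, such as those at cgh-1, cannot be given.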

Other observations

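A short run recurs under several of these peaks. The 12-base run ATGCGCCTTTAA, taken from the puf-3 summit (chromosome IV, from -8 to +3 bp), was also found within 75 bp of the lin-41 summit, on the other strand, and of the car-1 summit; it holds GGCGCA on the other strand. It was picked by comparing these members' own windows, so its presence there is no finding. The shares below come from the same lists that gave the run and the word it holds, and are no independent support. Over the whole list, 167 IDR summits (4.29%) had it within 75 bp, where 81 lower-ranked pooled summits (0.310%) did. It occurs 779 times in the genome. Of the 284 protein-coding promoter windows that hold it, 64.8% were bound, where 14.2% of all were. A longer run of 16 bases around it at puf-3, ACATGCGCCTTTAAAT, is shared with car-1 and occurs 7 times in the genome. It was within 75 bp of 5 IDR summits, puf-3 and car-1 among them by choice of the run, and of 0 lower-ranked ones. A run of 17 bases upstream of it, AATCGTGGCGAGACCCA, is also shared by puf-3 and car-1 and occurs 37 times. It was within 75 bp of 7 IDR summits, again with puf-3 and car-1 by choice, and of 2 lower-ranked ones.

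Other IDR peaks lie further from the promoters of the 9 genes. Within 3000 bp of the gene bodies there were 5 IDR peaks upstream of the window and 8 past the 3' end. The strongest was that of rank 662 at -2243 bp from puf-11, which is in the windows of both htp-2, a meiotic chromosome axis gene, and Y73B6BL.23. Next came rank 768 at 751 bp past the end of spn-4, in an intron of ZC404.15, and rank 1198 at -2468 bp from car-1, in an intron of pad-1.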
